A study of Mus musculus with 14 samples.

Results

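The comparison described here asked how D2A1 tumor cells, an established mouse mammary carcinoma line, differed after growth with wild-type (WT, Hsf1 +/+) mouse embryonic fibroblasts (MEFs) from the same cells grown alone. It used 4 of the 14 arrays of the series, chosen by their sample titles: 2 arrays of tumor cells with WT MEFs (A and B) and 2 arrays of tumor cells alone (A and B), called co-culture arrays and control arrays below. The other arrays hold WT MEFs and Hsf1 null (Hsf1 -/-) MEFs, alone and sorted from co-culture, and tumor cells grown with Hsf1 null MEFs. Co-cultures ran for 72 hours in DMEM with 10% serum before FACS split them into tumor cells and MEFs, and the controls were grown separately. The MEFs grown with the tumor cells profiled here were first treated with mitomycin C (10 µg/ml, 2 hours), which stops their division, and the labels give that treatment only for the profiling of cancer cells, so the sorted WT MEFs that were themselves profiled are another preparation. The tumor cells are 1 cell line with no genotype given, and nothing says that A and B were separate cultures, so the p-values rest on the spread between arrays alone, which may be technical. Slide 1 carried every A array and slide 2 every B array.

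Each array is a 1-colour Agilent mouse array labelled from 0.5 µg of RNA, and a value is the authors' deposited log2 signal for a gene name. The test covered 25896 of 36413 gene names, namely those with a probe well above background in at least 1 group. A log2 difference is the mean of tumor cells with WT MEFs minus the mean of tumor cells alone, ± the SE of the limma fit, in which all 7 groups share 1 variance per gene. A gene "rose" or "fell" where limma's p, adjusted by Benjamini-Hochberg over all tested genes, was under 0.05. Array values are given as A, then B, and only 2 arrays a group limit the precision of each. The scanner file of control array A was faulty, with 32.1% of its spots marked as outliers and a correlation of at most 0.302 with any other scanner file, so its flags were left out. Its column of the authors' table correlated with that of array B at 0.993, and counts of list members without this array are given where they moved by over 1.5 times. Of the keratins that mark epithelial cells, Krt18 stood at 16.47 and 16.54 and Krt8 at 8.44 and 8.44 in tumor cells alone, whereas Epcam, Cdh1, Krt19 and Grhl2 were not well above background there, so of the fixed mammary epithelial markers the line carried some and lacked others.

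Type I interferons act through a surface receptor and the kinases JAK1 and TYK2, which activate STAT factors. With IRF9 these form a complex, ISGF3, that binds the interferon-stimulated response element (ISRE) in promoters of antiviral genes. Fibroblasts are known sources of interferons, chemokines, matrix proteins and growth factors for neighbouring carcinoma cells. These groups, and the stress, metabolic and contractile genes of the tumor cells, are followed below.

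Because the interferon-stimulated genes moved together, the promoter stretches that hold an ISRE core are shown for the 6 members of the interferon lists with the largest rise among those with a match. They come from RefSeq (build GRCm38.p6, read on the gene's strand, 5′ to 3′), and capitals mark the core on either strand: GAAA, then 2 bases of any kind, then GAAA.
Ifit1, chr19:34640750-34640848, plus strand: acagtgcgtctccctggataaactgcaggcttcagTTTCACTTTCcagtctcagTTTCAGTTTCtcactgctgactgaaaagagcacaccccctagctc
Ifit3, chr19:34583338-34583451, plus strand: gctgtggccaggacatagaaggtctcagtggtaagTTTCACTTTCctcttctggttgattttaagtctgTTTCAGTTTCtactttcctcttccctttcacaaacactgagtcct
Gbp3, chr3:142559964-142560043, plus strand: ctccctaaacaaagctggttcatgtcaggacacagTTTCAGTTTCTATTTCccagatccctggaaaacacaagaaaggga
Irgm2, chr11:58214878-58214957, plus strand: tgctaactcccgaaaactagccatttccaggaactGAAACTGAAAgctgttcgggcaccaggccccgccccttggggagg
Mndal, chr1:173880188-173880258, minus strand: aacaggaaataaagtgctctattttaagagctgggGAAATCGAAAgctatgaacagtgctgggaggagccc
Oas1a, chr5:120907526-120907580, minus strand: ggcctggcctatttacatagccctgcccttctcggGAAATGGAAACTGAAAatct
Ifit1, Ifit3, Gbp3 and Oas1a each carried 2 matches in the stretch shown, overlapping in Gbp3 and Oas1a, and Irgm2 and Mndal 1 each. Windows ran from 250 bases before to 50 after a gene's start, and 12942 of the tested genes had one. The core stood in 3.57% of those genes. Among members that rose it stood in 7 of 8 interferon-inducible GTPases with a window, in 5 of 5 nucleic acid sensors, in 6 of 16 antiviral effectors, in 2 of 9 genes of MHC class I presentation, and in 1 of 4 receptors, STATs and IRFs. Among all tested members with a window, whether they rose or not, the counts were 9 of 10, 6 of 11, 9 of 25, 4 of 19 and 3 of 19 in the same order. A match describes the letters of the window only.

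With WT MEFs, 1823 of 25896 genes rose (7.04% of those tested) and 1235 fell (4.77%), 834 and 139 of them at least 2-fold. Both slides agreed in sign for all of them. The rises reached further than the falls: 127 genes rose at least 8-fold, and 5 fell at least 4-fold. A fit with a term for the slide called 4163 genes, 54.9% of them higher against 59.6% without it. Where each array was instead centred on its median, which moved the median difference of all genes from -0.04 to -0.10, 1916 fell and 1588 rose, so 45.3% of the genes that passed were higher. Of the 3058 genes, 1236 passed without any 1 of the 4 arrays, and 1422 lost their call without control array A.

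Genes typical of fibroblasts led the rises. Col3a1, a fibrillar collagen chain, stood at 5.32 and 6.30 in tumor cells alone, 13.03 and 13.30 with WT MEFs and a mean of 16.76 in WT MEFs sorted from co-culture. Of 229 genes at least 32-fold higher in both WT MEF groups than in tumor cells alone, 220 rose. Their median signal above that of tumor cells alone was 7.46% of the excess of sorted WT MEFs over tumor cells alone on array A and 7.37% on array B (the middle 80% of genes from 4.67% to 12.8% on A). In these bulk samples, a small number of MEFs among the tumor cells and low expression in the tumor cells cannot be told apart. The summed signal of the 19 fibroblast markers was 255180 and 290570 in tumor cells alone, 442490 and 462060 with WT MEFs and 1059700 and 1117200 in sorted WT MEFs. Lum and Fap missed the flag for well above background on at least 1 array with WT MEFs. Of 19 tested markers, 16 rose (6 with that median share of the sorted WT MEF level subtracted). Signal went the other way too: 77 genes at least 32-fold higher in tumor cells alone than in WT MEFs alone kept a median of 35.2% and 34.3% of their tumor cell signal in sorted WT MEFs, and Krt18 stood at 16.26 there against 8.01 in WT MEFs alone. The part of this MEF signal in each rise was not tested beyond the subtraction given below.

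**Figure D1:**
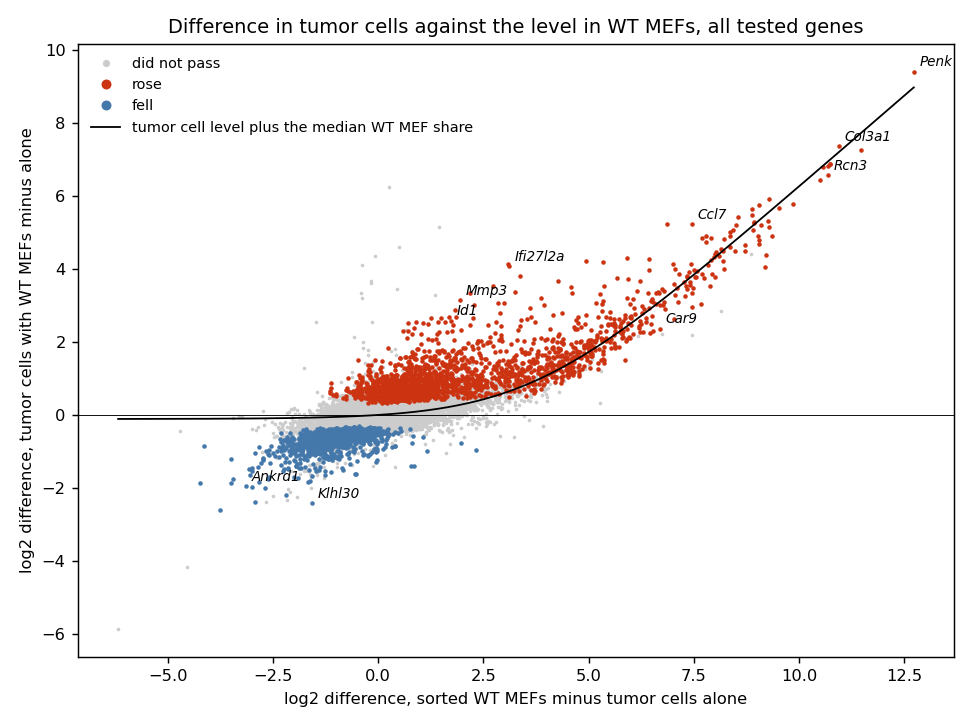
Log2 difference of tumor cells with WT MEFs minus tumor cells alone (vertical) against the log2 difference of sorted WT MEFs minus tumor cells alone (horizontal), 1 point per tested gene, group means of 2 arrays. The line is the difference that the tumor cell level plus the mean of the shares 7.46% and 7.37% of the WT MEF level gives: Col3a1 and Rcn3 lie near it, Car9 lies below it, and Ifi27l2a, Mmp3 and Id1 lie above it.

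The level in WT MEFs is given beside a part of the rises below. Beside a count of 0 list members, brackets give the number with that direction at limma's unadjusted p under 0.05. Of the 834 genes that rose at least 2-fold, 723 were at least 2-fold higher in either WT MEF group than in tumor cells alone. The other 111 were not. Over all 25896 tested genes, 3284 were that much higher in WT MEFs. Both differences use the same control arrays, so a low control value raises both. Among the 22612 tested genes that were not 2-fold higher in WT MEFs, 2.92% rose and 5.41% fell. Counted against the MEF level itself, 183 genes rose at least 2-fold to a mean above both WT MEF groups. With the MEF share subtracted from the arrays with WT MEFs, 1030 genes rose and 2425 fell. Taking off the share lowers every gene with signal in sorted WT MEFs, tumor cell genes among them, without scaling up the rest. The median difference of all genes thus moved from -0.04 to -0.14. This count of falls, like that of each list after subtraction, includes that shift. For 430 genes the share reached the level with WT MEFs, or left less than the floor, on both arrays, and they were set to that floor, the array's 5th percentile, so a difference after subtraction only reflects the floor there.

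**Figure D2:**
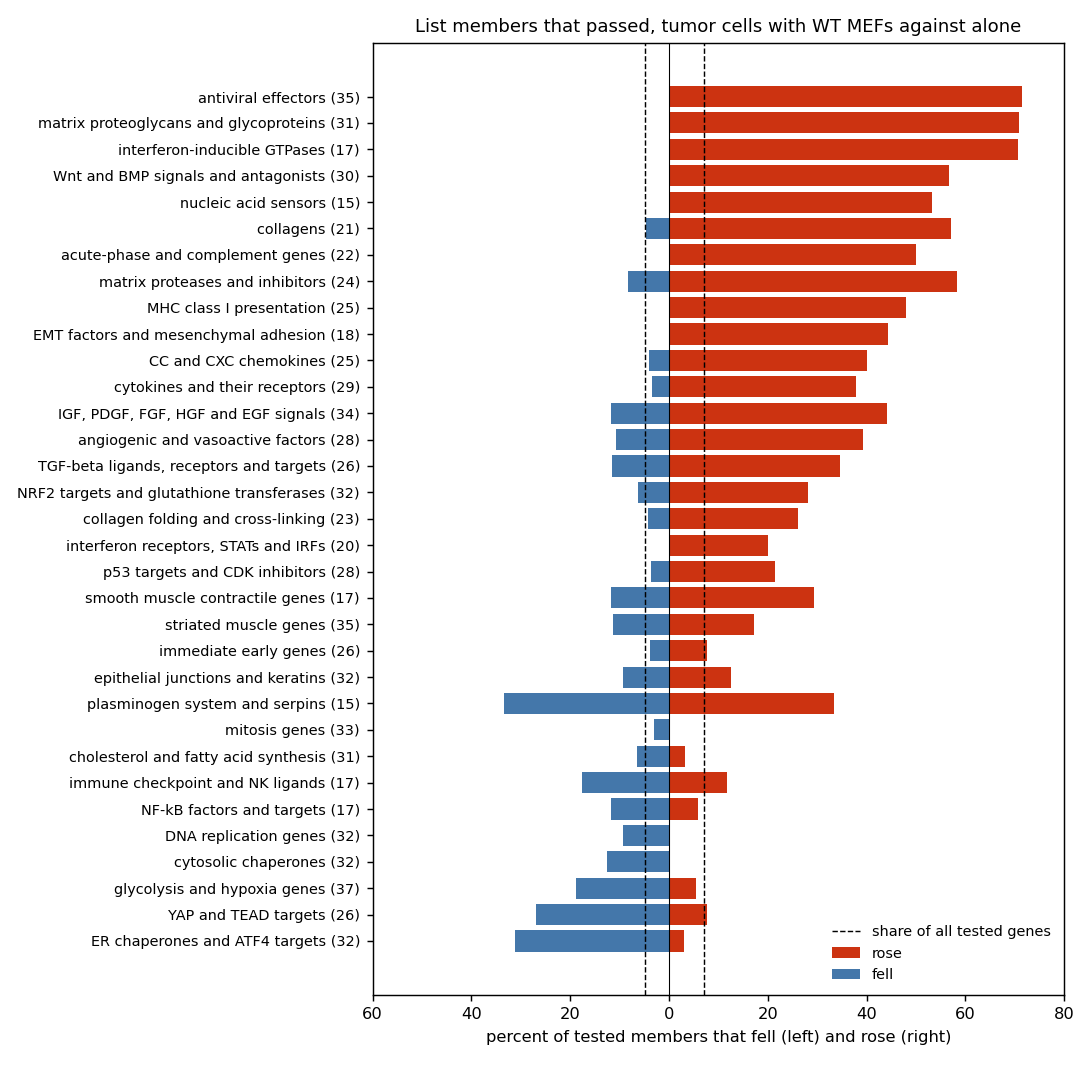
Percent of each list's tested members (number in brackets) that rose, to the right, and fell, to the left, by limma's adjusted p. Dashed lines mark the shares of all tested genes, 7.04% and 4.77%; antiviral effectors, matrix glycoproteins and GTPases rose most often, the plasminogen system and ER chaperones with ATF4 targets fell most often.

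Antiviral effectors, the proteins that block viral entry, translation and replication, had 25 of 35 members higher and 0 [0 unadjusted] lower, with a median log2 difference of 1.57 against -0.04 over all genes. Ifit1, which binds viral RNA lacking the host cap methylation, stood at 6.57 and 6.68 in tumor cells alone and 10.36 and 10.51 with WT MEFs (3.81 ± 0.14, adjusted p = 5.6e-07). Its mean was 9.98 in sorted WT MEFs and 7.63 in WT MEFs alone, so tumor cells with WT MEFs had the highest level of the 4 groups, with no overlap between arrays (of all tested genes, 52.2% had no overlap between tumor cells with WT MEFs and alone). Ifi27l2a, a mitochondrial interferon-induced protein, rose from 10.48 and 10.55 to 14.62 and 14.58 (4.08 ± 0.15, 16.9-fold), above 13.62 in sorted WT MEFs and 11.62 in WT MEFs alone. The oligoadenylate synthetase genes, whose product activates the RNA-degrading enzyme RNase L, rose as well. Oas1a went from 8.90 and 8.85 to 11.29 and 11.22 (2.38 ± 0.11), and the relative Oasl2 from 8.14 and 8.53 to 11.93 and 11.80 (3.54 ± 0.18), against 9.74 and 11.06 in sorted WT MEFs. Ifi44, near background in tumor cells alone, rose at least 18.2-fold (adjusted p = 2.23e-06), and it stood higher still in sorted WT MEFs (10.68) than in tumor cells with WT MEFs (9.61 and 9.41). Rtp4, a chaperone of receptors, rose by 2.66 ± 0.13, adjusted p = 2.49e-06. Of the 25, 11 stood above both WT MEF groups and 24 passed with the MEF share subtracted. For the 21 members at least 2-fold higher in sorted WT MEFs than in tumor cells alone, the signal above that of tumor cells alone had a median of 67.1% and 65% of the excess of sorted WT MEFs over tumor cells alone.

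**Figure D3:**
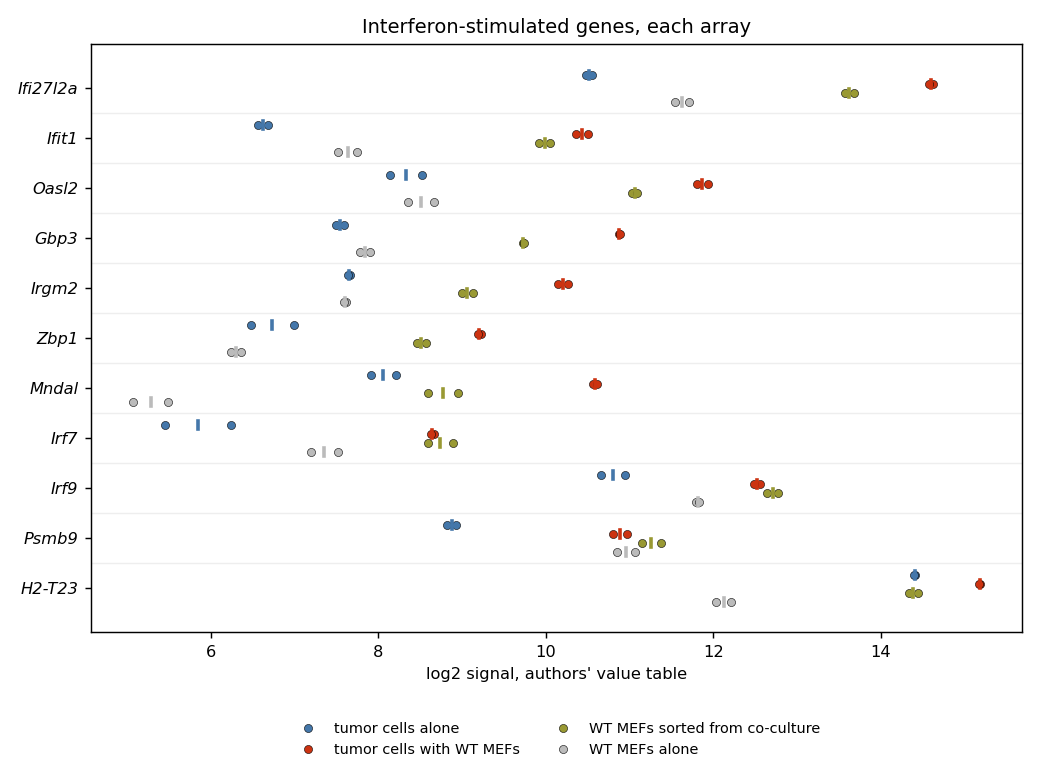
Log2 signal of 11 interferon-stimulated genes on each array (points) with the group mean (bars) in tumor cells alone, tumor cells with WT MEFs, sorted WT MEFs and WT MEFs alone. The arrays of tumor cells with WT MEFs lie right of those of tumor cells alone for every gene shown, and for Ifi27l2a, Ifit1, Oasl2, Gbp3, Irgm2, Zbp1, Mndal and H2-T23 right of both WT MEF groups too.

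The interferon-inducible GTPases, which attack the membranes around intracellular pathogens, had 12 of 17 members higher and 0 [0 unadjusted] lower (median 1.43), 10 of them above both WT MEF groups. Gbp3, a guanylate-binding protein, stood at 7.49 and 7.60 in tumor cells alone and 10.87 and 10.89 with WT MEFs (3.33 ± 0.16, adjusted p = 2.37e-06). Its probe lies at chr3:142236032-142236091 on mm9, the build of the array's annotation. Sorted WT MEFs had 9.73 and WT MEFs alone 7.84, both below the tumor cells with WT MEFs. Gbp1 rose by 2.22 ± 0.16, Irgm2 by 2.55 ± 0.19, Gbp4 by 2.54 ± 0.19 and Gbp9 by 1.83 ± 0.17. Members of the Gbp family are close in sequence, so their probes may share signal. The 10 members at least 2-fold higher in sorted WT MEFs lay at a median of 133% and 127% of the sorted WT MEF signal, after the signal of tumor cells alone was taken off both.

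Nucleic acid sensors, which detect foreign RNA or DNA in the cell, had 8 of 15 members higher and 0 [0 unadjusted] lower (median 0.83). Zbp1, a sensor of Z-form nucleic acid, rose from 6.99 and 6.48 to 9.22 and 9.19 (2.47 ± 0.16, adjusted p = 1.06e-05). Mndal, a DNA-binding protein of the Ifi200 cluster, rose from 8.22 and 7.91 to 10.57 and 10.62 (2.53 ± 0.23), where sorted WT MEFs had 8.77 and WT MEFs alone 5.28. Ifi203, another member of that cluster, rose by 1.25 ± 0.09 and also stood above both WT MEF groups (9.72 and 6.65). In the scanner signals its 4 probes ranged from 0.26 to 1.58, with control array B only. Ddx58, which encodes the RNA sensor RIG-I, rose by 1.36 ± 0.12, and Trim21, an antibody receptor of the cytosol, by 1.49 ± 0.12.

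Upstream, the receptors, STATs and interferon regulatory factors changed less often: 4 of 20 rose and 0 [0 unadjusted] fell, with a median of 0.24. Irf9, the DNA-binding part of ISGF3, rose from 10.66 and 10.95 to 12.56 and 12.48 (1.72 ± 0.12, adjusted p = 1.73e-05), and Stat2, its partner, from 9.91 and 9.88 to 11.26 and 11.17 (1.32 ± 0.15). Irf7, which amplifies interferon production, rose from 5.45 and 6.24 to 8.66 and 8.63 (2.80 ± 0.29). These levels were at or below those of sorted WT MEFs (12.71, 12.44 and 8.74).

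Genes of MHC class I presentation, which displays peptides to CD8 T cells, had 12 of 25 members higher and 0 [0 unadjusted] lower (median 0.58). The immunoproteasome subunits Psmb9 and Psmb8, which trim peptides for MHC class I, rose most of those named: Psmb9 stood at 8.82 and 8.93 and then 10.97 and 10.80 (2.01 ± 0.18, adjusted p = 7.16e-05), and Psmb8 rose by 1.84 ± 0.23. The peptide transporter gene Tap2 rose by 0.98 ± 0.14. The class I heavy chain genes started high and rose little: H2-T23 from 14.41 and 14.40 to 15.18 and 15.17 (0.78 ± 0.10) and H2-K1 by 0.56 ± 0.10. H2-T23 stayed above both WT MEF groups (14.39 and 12.12), while Psmb9 did not (11.26 and 10.95). Class I heavy chain genes are near-identical copies, so their probes may share signal.

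Chemokines, which recruit leukocytes, had 10 of 25 members higher and 1 lower (2 without co-culture array B or control array A), but a median of only 0.12. With the MEF share subtracted 6 rose and 4 fell. Ccl7, a monocyte attractant, stood at 4.83 and 5.88 in tumor cells alone, 10.82 and 10.33 with WT MEFs and 12.80 in sorted WT MEFs (5.23 ± 0.42, adjusted p = 3.19e-05). Ccl5, which attracts T cells, rose from 8.90 and 9.15 to 13.29 and 13.19 (4.21 ± 0.27), against 13.98 in sorted WT MEFs and 11.87 in WT MEFs alone. Cxcl10, the ligand of CXCR3, rose by 2.04 ± 0.23. For Cxcl14 the pattern was that of the fibroblast genes: it rose at least 29.7-fold but the MEF share exceeded its level on both arrays. Cxcl12, the ligand of CXCR4, stood at 11.48 and 11.68, then 12.51 and 12.43 (0.89 ± 0.17, adjusted p = 0.00654), far below 15.92 in sorted WT MEFs. Its call was lost without control array A (0.79). With the MEF share subtracted it was lower (-1.51, adjusted p = 0.000898), but not with the level of WT MEFs grown alone (0.21, adjusted p = 0.467). In the scanner signals its 2 probes gave 0.40 and 1.16, with control array B only. Cxcr4 was not well above background in either group. Ccl3 stood at 5.10 and 17.14 in tumor cells alone and 5.05 and 5.46 with WT MEFs, so its high value lay on 1 array, and it did not pass (adjusted p = 0.193).

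Of cytokines and their receptors, 11 of 29 rose (7 without control array A or B) and 1 fell (0 without co-culture array B), and 6 rose with the MEF share subtracted. Il18, an interferon-gamma inducing cytokine, rose from 6.74 and 6.95 to 8.75 and 8.98 (2.02 ± 0.13, adjusted p = 8.06e-06). Tslp rose by 1.06 ± 0.14, Il1r1 by 1.16 ± 0.16 and Il7, a lymphocyte growth factor, by 0.90 ± 0.15. Il7 stood above both WT MEF groups (10.79 and 10.77 against means of 9.35 and 4.99). The NF-kB list showed no common direction, with 1 of 17 higher and 2 lower (1 without any 1 of the 4 arrays). Vcam1, an adhesion molecule for leukocytes, rose by 1.51 ± 0.12, adjusted p = 3.33e-05, and Tnfaip3, which encodes the NF-kB inhibitor A20, fell from 11.43 and 11.46 to 10.41 and 10.40 (-1.04 ± 0.13, adjusted p = 0.000601).

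Complement and acute-phase genes had 11 of 22 higher and 0 [0 unadjusted] lower (1 without control array B; median 0.82). C1s, a protease of the classical pathway, was already expressed in tumor cells alone (12.61 and 12.72) and rose to 14.16 and 14.30 (1.57 ± 0.14, adjusted p = 7.24e-05). C4b, the next component, rose from 6.99 and 6.68 to 10.63 and 10.37 (3.66 ± 0.36), against 13.06 in sorted WT MEFs. Serpina3g, a protease inhibitor, rose at least 28.7-fold. Ptx3, a soluble pattern receptor, rose at least 55.2-fold, from 5.04 and 5.38 to 11.01 and 10.98, and was 15.07 in sorted WT MEFs. With the MEF share subtracted 10 members rose, and the MEF share exceeded the level of Ptx3 on both arrays.

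Ligands of immune checkpoints and NK receptors had 2 of 17 higher (1 without co-culture array A and 0 without co-culture array B or control array A or B) and 3 lower. Pvr, the poliovirus receptor, a ligand of TIGIT and CD226, fell from 11.84 and 12.21 to 10.62 and 10.53 (-1.45 ± 0.21, adjusted p = 0.00131). Tigit itself, known as a lymphocyte receptor, fell from 10.02 and 9.90 to 8.10 and 8.08 (-1.87 ± 0.21). Of the 11 tested markers of T and NK cells, 0 [1 unadjusted] rose and 0 [1 unadjusted] fell, and Cd3d, Cd3g, Cd8a, Cd2 and Ncr1 were not well above background in tumor cells of either group.

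Collagens, the fibres of the connective tissue matrix, had 12 of 21 members higher and 1 lower (0 without co-culture array B or control array A or B), with a median of 1.06, and 5 higher with the MEF share subtracted. Col1a1 and Col1a2, the chains of type I collagen, stood at 8.41 and 8.65 and 9.43 and 9.56 in tumor cells alone, at 14.06 and 13.86 and 15.23 and 15.06 with WT MEFs, and at means of 17.09 and 18.38 in sorted WT MEFs. They passed with the MEF share subtracted (3.91, adjusted p = 0.000175 and 3.90, adjusted p = 0.000352), as did Col6a1 (1.06, adjusted p = 0.0334), but Col3a1 did not (2.60, adjusted p = 0.179) unless the level of WT MEFs grown alone was used (5.05, adjusted p = 0.000414). Col2a1, the cartilage collagen, rose from 5.90 and 6.27 in tumor cells alone to 7.78 and 7.88 with WT MEFs (1.74 ± 0.16, adjusted p = 9.21e-05), between the means of sorted WT MEFs (7.49) and WT MEFs alone (8.18).

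Proteoglycans and glycoproteins of the matrix had 22 of 31 higher and 0 [0 unadjusted] lower (median 1.44), 12 with the MEF share subtracted. Ogn and Omd, small leucine-rich proteoglycans, rose by 4.83 ± 0.35 and at least 13.4-fold, and Ogn stood at 13.21 and 13.01 with WT MEFs against 16.48 in sorted WT MEFs. Spon2, a secreted spondin, rose from 6.25 and 6.02 to 9.33 and 9.10 (3.08 ± 0.18, adjusted p = 4.7e-06) and lay close to sorted WT MEFs (9.13). Of the collagen folding and cross-linking enzymes 6 of 23 rose and 1 fell (0 without any 1 of the 4 arrays), and 2 rose with the MEF share subtracted. Lox, which cross-links collagen and elastin, rose at least 15.3-fold and did not pass with the MEF share subtracted (0.19, adjusted p = 0.791). In that subtraction Lox was set to the floor on 1 array, so the value partly reflects it. Loxl1 rose by 2.30 ± 0.28, but its level with WT MEFs (10.45 and 10.19) was below the MEF share of its level in sorted WT MEFs (14.55) on both arrays.
Rcn3, a calcium-binding protein of the ER, and Fstl1, a secreted follistatin-like glycoprotein, were among the highest rises of all genes. Rcn3 went from 6.02 and 6.10 to 12.67 and 12.59 (6.57 ± 0.26, adjusted p = 6.43e-07) and Fstl1 from 5.80 and 6.20 to 12.38 and 12.52 (6.44 ± 0.33), against 16.75 and 16.51 in sorted WT MEFs. The MEF share exceeded the level of both genes on both arrays. Penk, the enkephalin precursor, rose at least 677-fold, from 5.38 and 5.01 to 14.56 and 14.63, and did pass (7.44, adjusted p = 0.00423).

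Among proteases of the matrix and their inhibitors, 14 of 24 were higher (8 without co-culture array A or control array A and 9 without co-culture array B) and 2 lower (0 without co-culture array A or control array A or B and 1 without co-culture array B), and 8 were higher with the MEF share subtracted. Mmp3, stromelysin 1, stood at 10.34 and 10.31 in tumor cells alone and 13.52 and 13.43 with WT MEFs, 8.85-fold higher (3.15 ± 0.11, adjusted p = 5.6e-07). WT MEFs alone had only 8.25 and sorted WT MEFs 12.28, so the tumor cells with WT MEFs held the highest level. Mmp9, gelatinase B, showed the same order, with 7.17 and 7.16, 9.73 and 9.90 (2.65 ± 0.22), 8.41 in sorted WT MEFs and 6.42 in WT MEFs alone. Mmp2, gelatinase A, rose at least 20.1-fold to 9.62 and 9.37 but stood at 13.14 in sorted WT MEFs. It did not pass with the MEF share subtracted (0.86, adjusted p = 0.255), where 1 array was set to the floor.
The plasminogen system moved both ways, with 5 of 15 members higher and 5 lower. The tissue-type activator Plat rose from 10.48 and 10.58 to 12.09 and 12.37 (1.70 ± 0.20, adjusted p = 0.000358). F3, tissue factor, fell from 12.78 and 12.91 to 11.27 and 11.55 (-1.43 ± 0.14), and Plaur, the urokinase receptor, by 0.95 ± 0.13. Serpinf1, an inhibitor-like serpin that restrains vessel growth, rose by 5.02 ± 0.38 to 11.80 and 11.75, against 15.11 in sorted WT MEFs.

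Wnt and BMP signals and their antagonists had 17 of 30 members higher and 0 [0 unadjusted] lower (median 1.08), 9 with the MEF share subtracted. BMP ligands act through SMAD1 and SMAD5, and the Id genes, inhibitors of basic helix-loop-helix factors, are their classical targets. Bmp4 was near background in tumor cells alone (5.19 and 5.33), stood at 8.81 and 8.78 with WT MEFs and 10.64 in sorted WT MEFs, and rose at least 11.6-fold. Id1 rose from 11.05 and 10.95 to 13.68 and 13.49 (2.59 ± 0.19, adjusted p = 2.24e-05), above 12.73 in sorted WT MEFs and 13.24 in WT MEFs alone. Id3 rose from 11.87 and 12.22 to 15.23 and 14.90 (3.02 ± 0.29) but stayed below the WT MEF groups (15.99 and 16.50), and Id2 rose by 1.09 ± 0.16. Smad6, which dampens BMP signalling, rose by 2.10 ± 0.23. Id1 and Id3 passed with the MEF share subtracted (2.53, adjusted p = 5.34e-05 and 2.80, adjusted p = 0.000324). Hey1, a transcriptional repressor of the Notch pathway named after its value was seen, rose from 12.43 and 12.57 to 14.52 and 14.39 (1.95 ± 0.11, adjusted p = 5.51e-06), above both WT MEF groups (13.52 and 11.68).

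Of the TGF-beta list 9 of 26 rose and 3 fell (1 without any 1 of the 4 arrays). The ligands differed in direction. Tgfb3 rose from 11.76 and 11.93 to 13.40 and 13.21 (1.46 ± 0.21, adjusted p = 0.0012) and passed with the MEF share subtracted (0.85, adjusted p = 0.0276). Tgfb1 (0.67 ± 0.18, adjusted p = 0.0336) was higher and Tgfb2 (-0.96 ± 0.26, adjusted p = 0.039) lower, and neither passed without any 1 of the 4 arrays (adjusted p from 0.0567 to 0.185 and from 0.101 to 0.16). Ltbp2, a latent TGF-beta binding protein, rose by 1.51 ± 0.20. Inhba, the activin A subunit, fell from 14.03 and 13.93 to 12.75 and 12.80 (-1.21 ± 0.11, adjusted p = 8.31e-05).

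Growth factor ligands and receptors had 15 of 34 higher (9 without co-culture array A or B or control array A) and 4 lower (2 without co-culture array A, 1 without co-culture array B and 0 without control array B), and 6 higher with the MEF share subtracted. Areg and Btc encode ligands of the EGF receptor. Areg rose from 11.33 and 11.49 to 12.86 and 12.70 (1.36 ± 0.12, adjusted p = 7.97e-05), above 11.25 in sorted WT MEFs and 5.65 in WT MEFs alone. Btc rose from 7.08 and 7.62 to 9.49 and 9.83 (2.31 ± 0.24), also above both WT MEF groups (7.95 and 5.18). Egfr, their receptor, rose from 5.31 and 5.25 to 8.02 and 8.14 (2.80 ± 0.26) and stood at 11.55 in sorted WT MEFs. It did not pass with the MEF share subtracted (0.30, adjusted p = 0.544), where 1 array was set to the floor. Pdgfrb, a PDGF receptor, rose from 10.80 and 10.79 to 12.41 and 12.65 (1.73 ± 0.16) and passed after subtraction (1.49, adjusted p = 0.00052). Igfbp6, which binds IGF-II, rose by 1.35 ± 0.16 to above both WT MEF groups.
Among angiogenic and vasoactive factors 11 of 28 rose and 3 fell, and 6 rose with the MEF share subtracted. Angpt1, a ligand of the endothelial receptor TIE2, rose from 7.05 and 7.11 to 9.39 and 9.40 (2.32 ± 0.26, adjusted p = 0.00032), and Ednra, an endothelin receptor, by 1.97 ± 0.22. Edn1, the precursor of endothelin 1, fell from 10.20 and 10.35 to 8.28 and 8.64 (-1.81 ± 0.25, adjusted p = 0.000963). The lymphangiogenic factor Vegfc rose at least 24.1-fold but the MEF share reached its level, less the floor, on both arrays.

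Of the 1235 genes that fell, 1191 were lower in sorted WT MEFs than in tumor cells alone and 1111 were lower in WT MEFs alone. The same share over all tested genes was not counted. Both differences use the same control arrays as the fall itself, so no result is drawn from these counts. Of the 12 lowest differences among genes that passed and were well above background in both groups, 3 belong to 1 locus: the probe of 1110002E22Rik starts at position 137744343 of mm9 chromosome 3, that of 1 unnamed transcript at the same position, and that of a second one 291 bases before it. 1110002E22Rik stood at 9.91 and 9.92 in tumor cells alone and 8.01 and 8.29 with WT MEFs (-1.76 ± 0.11, adjusted p = 7.35e-06), and the unnamed transcripts differed by -2.60 ± 0.14 and -2.01 ± 0.23. In the scanner signals the 2 probes of 1110002E22Rik gave -3.61 and -0.65, with control array B only. Its probe and that of the first unnamed transcript both span 137744343 to 137744402, so these are not separate readings. Of the neighbours within 100000 bases, Mttp did not pass (-0.25 ± 0.12, adjusted p = 0.23), nor did Rg9mtd2 (-0.02 ± 0.14, adjusted p = 0.943), Gm5105 (-0.42 ± 0.14, adjusted p = 0.0923) or C230076A16Rik (-0.39 ± 0.22, adjusted p = 0.297). A further unnamed transcript, whose probe starts 4201 bases before position 137744343, was lower (-0.46 ± 0.12, adjusted p = 0.0286). Its means were low, 5.39 in tumor cells alone and 4.93 with WT MEFs.

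**Figure D4:**
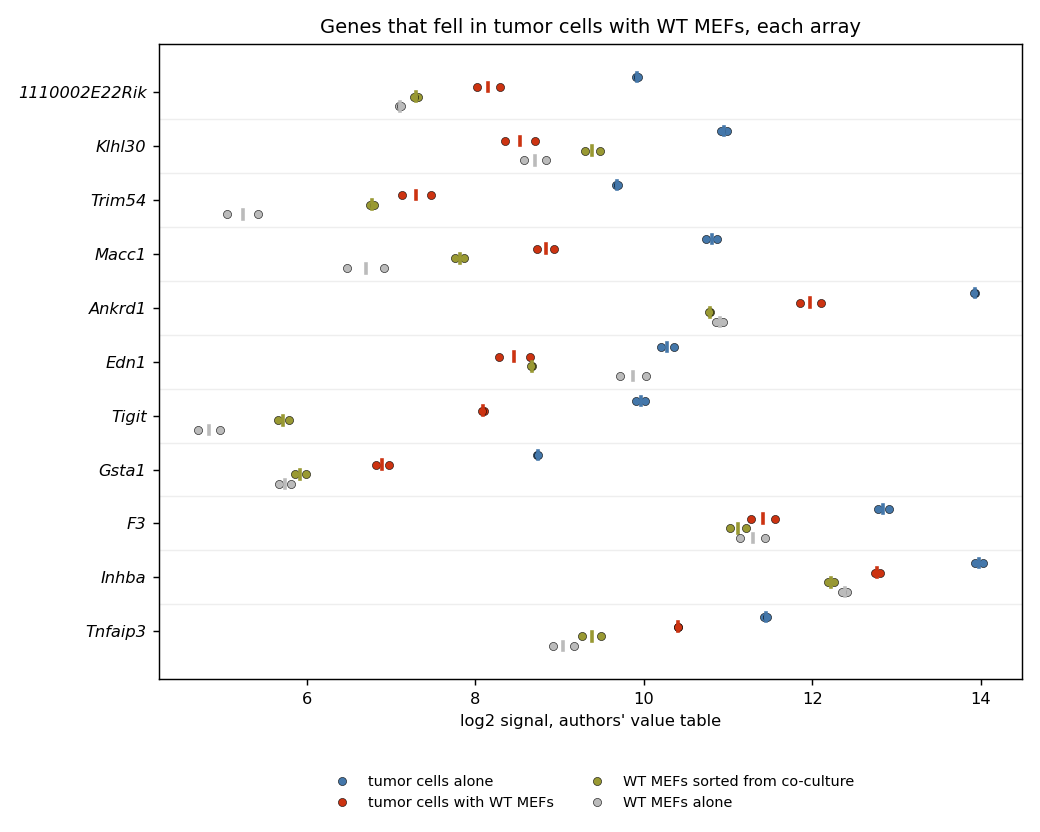
Log2 signal of 11 genes that fell on each array (points) with the group mean (bars), in the same 4 groups. For each gene both arrays with WT MEFs lie left of both arrays of tumor cells alone.

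Striated muscle genes were measured in these tumor cells, and 6 of 35 rose (3 without co-culture array A) and 4 fell. Klhl30, a kelch-like gene expressed in muscle, fell from 10.98 and 10.92 to 8.35 and 8.71 (-2.42 ± 0.20, adjusted p = 3.34e-05). Trim54, which binds muscle microtubules, fell from 9.67 and 9.69 to 7.12 and 7.47 (-2.38 ± 0.19). Ankrd1, a sarcomere protein and a target of YAP, fell from 13.93 and 13.92 to 11.85 and 12.10 (-1.95 ± 0.11, adjusted p = 3.44e-06), and its relative Ankrd2 rose at least 2.43-fold from near background. Cryab, a small heat shock protein abundant in muscle, fell by 1.12 ± 0.13.
YAP and TEAD targets had 7 of 26 members lower (4 without co-culture array A or control array B) and 2 higher, with a median of -0.28. YAP is a co-activator that TEAD factors bring to the M-CAT motif, CATTCC. Ankrd1, Edn1 and F3 were the lowest of the 7. The 2 that rose were Ccdc80 (3.29 ± 0.33) and Ctgf, a matricellular growth factor (10.22 and 9.95, then 12.63 and 12.57, 2.52 ± 0.25). Ctgf stood at 14.84 and 16.43 in the WT MEF groups, and the MEF share reached the level of Ccdc80, less the floor, on both arrays. All 7 members that fell had a promoter window, and CATTCC, on either strand, stood in 5 of them, against 9 of 17 tested members with a window and 15.1% of tested genes.
Among the other falls, Macc1, a regulator of the MET receptor, fell from 10.86 and 10.74 to 8.73 and 8.94 (-1.97 ± 0.18, adjusted p = 7.85e-05). Fgd3, an exchange factor of CDC42, fell by 1.83 ± 0.19.

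Glycolysis and hypoxia genes had 7 of 37 members lower (4 without any 1 of the 4 arrays) and 2 higher, with a median of -0.28. Hk2, hexokinase 2, fell from 11.92 and 11.92 to 10.70 and 10.97 (-1.09 ± 0.13, adjusted p = 0.00037), Ndrg1 from 14.89 and 14.86 to 13.86 and 13.88 (-1.01 ± 0.12), and Egln3, an oxygen-sensing hydroxylase, by 0.84 ± 0.13. Car9, a carbonic anhydrase, rose from 7.15 and 7.22 to 9.54 and 9.54 (2.36 ± 0.16, adjusted p = 1.32e-05), but sorted WT MEFs had 13.89, and the MEF share exceeded its level on both arrays. Adm, adrenomedullin, rose at least 5.28-fold and did not pass after subtraction (0.32, adjusted p = 0.645).
ER chaperones and targets of ATF4, the transcription factor of the integrated stress response, had 10 of 32 lower and 1 higher (median -0.21). This count rests on single arrays, with 0 without co-culture array A, 6 without co-culture array B and 2 without control array A. Asns, asparagine synthetase, stood at 16.22 and 16.20 and 15.49 and 15.56 (-0.68 ± 0.14, adjusted p = 0.0113) and lost its call without co-culture array A (-0.65, adjusted p = 0.0666) or control array A (-0.67, adjusted p = 0.0589). Vldlr, a lipoprotein receptor on that list, rose by 0.74 ± 0.12.
Of cytosolic chaperones 4 of 32 fell (2 without co-culture array B or control array A and 1 without control array B) and 0 [2 unadjusted] rose (1 without co-culture array A). Hsf1, the master regulator of that class, did not pass in the tumor cells, at 12.85 and 12.81 alone and 12.78 and 12.72 with WT MEFs (-0.08 ± 0.12, adjusted p = 0.736).

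Targets of NRF2 and glutathione transferases had 9 of 32 members higher and 2 lower (1 without co-culture array A or B). Within the glutathione transferases, which conjugate electrophiles, directions differed. Gsta4 rose from 8.31 and 8.16 to 9.51 and 9.56 (1.30 ± 0.13, adjusted p = 0.000162), Gstm1 by 1.09 ± 0.12 and the membrane-bound Mgst1 by 1.25 ± 0.16. Gsta1, whose probe lies 44239 bases from that of Gsta4 on mm9 chromosome 9, fell from 8.73 and 8.75 to 6.82 and 6.97 (-1.85 ± 0.21, adjusted p = 0.000339). Its neighbour Gm10639 was lower too (-0.89 ± 0.16, adjusted p = 0.00519), and Gsta2 did not pass (-0.89 ± 0.31, adjusted p = 0.0935) except with the slide as a block (adjusted p = 0.0424). These genes are close copies, so which of them a probe reads is uncertain.
Aldh3a1, an aldehyde dehydrogenase, and Ugt1a6b, a glucuronosyltransferase, both known as targets of the aryl hydrocarbon receptor and named after their values were seen, rose by 1.79 ± 0.21 and 2.10 ± 0.14, to above both WT MEF groups.

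DNA replication genes had 3 of 32 members lower (1 without co-culture array A or B or control array B) and mitosis genes 1 of 33 (0 without any 1 of the 4 arrays), with 0 [0 unadjusted] and 0 [2 unadjusted] higher. Of all tested genes 4.77% fell. Ccne1, cyclin E1, fell from 11.78 and 11.77 to 11.28 and 11.30 (-0.49 ± 0.09, adjusted p = 0.00645). Of p53 targets and CDK inhibitors 6 of 28 rose (3 without co-culture array A and 2 without co-culture array B or control array A or B), 2 with the MEF share subtracted, and Sesn1, a stress-induced inhibitor of mTORC1, rose from 11.14 and 11.04 to 11.83 and 11.81 (0.73 ± 0.09). Genes of cholesterol and fatty acid synthesis had 2 of 31 lower (0 without co-culture array A and 1 without control array A or B) and 1 higher, Tm7sf2, a sterol reductase (0.81 ± 0.10). Immediate early genes had 2 of 26 higher (1 without co-culture array A or control array A and 4 without control array B) and 1 lower (0 without co-culture array A or control array B and 2 without control array A), with Egr2, a zinc finger factor, at 9.24 and 9.91 and then 11.30 and 10.79 (1.47 ± 0.25, adjusted p = 0.00406).

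Epithelial junction and keratin genes had 4 of 32 higher (2 without co-culture array A or B or control array A) and 3 lower. Cldn3, a tight junction claudin, fell from 9.93 and 9.73 to 8.24 and 8.48 (-1.47 ± 0.24, adjusted p = 0.00323), and Dsp, desmoplakin, rose at least 4.16-fold from near background. EMT factors and mesenchymal adhesion genes had 8 of 18 higher (5 without co-culture array A or control array A) and 0 [2 unadjusted] lower, and 5 higher with the MEF share subtracted. Snai1, a repressor of E-cadherin, rose from 12.69 and 12.63 to 13.47 and 13.76 (0.96 ± 0.15, adjusted p = 0.00243), close to sorted WT MEFs (13.25). Cdh13 and Cdh2, mesenchymal cadherins, rose at least 29.4-fold and by 3.40 ± 0.28. Cdh2 did not pass with the MEF share subtracted (1.12, adjusted p = 0.0769) and was lower with the level of WT MEFs grown alone (-1.13, adjusted p = 0.0273). Smooth muscle contractile genes had 5 of 17 higher (2 without co-culture array A or control array B and 3 without co-culture array B or control array A) and 2 lower (1 without co-culture array A or control array A), and 2 rose and 7 fell after that subtraction. Cnn1, calponin, stood at 8.62 and 8.32 and 11.13 and 11.17 (2.68 ± 0.32) against 13.88 in sorted WT MEFs, and Tpm1, a tropomyosin, was lower (-0.68 ± 0.09).
Of macrophage markers 1 of 11 rose, Fcer1g, an Fc receptor subunit (6.63 and 6.77, then 8.02 and 7.81, 1.22 ± 0.14). Of endothelial markers 2 of 9 rose (1 without co-culture array A or control array A or B), and Cdh5, Tek and Tie1 were not well above background in any of the 4 groups. The summed endothelial signal was 3116 and 3448 in tumor cells alone, 4933 and 4485 with WT MEFs and 18068 and 20519 in sorted WT MEFs. The summed macrophage signal was 9871 and 10227 in tumor cells alone and 10813 and 9538 with WT MEFs. Their part in the results was not tested.

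Tumor cells grown with Hsf1 null MEFs were compared with the same tumor cells alone, so the comparisons share control arrays, and their values are set side by side with no test of the difference. Ifit1 differed by 3.81 ± 0.14 with WT MEFs and by 7.23 ± 0.14 with Hsf1 null MEFs. Gbp3 differed by 3.33 ± 0.16 and 7.94 ± 0.16, and Ccl7 by 5.23 ± 0.42 and 9.25 ± 0.42. The 2 arrays with Hsf1 null MEFs lay apart for Ccl7 (13.89 and 15.31) and the fibroblast genes Col3a1 (12.69 and 14.63) and Fstl1 (12.96 and 14.30). For Ifit1 they were closer (13.70 and 14.01). Levels in Hsf1 null MEFs are not given, and the MEF part of these differences was not tested. Antiviral effectors had a median of 1.57 with WT MEFs (25 of 35 higher) and 4.71 with Hsf1 null MEFs (35 higher). The size ran the other way for Mmp3, at 3.15 ± 0.11 beside WT MEFs against 0.58 ± 0.11 beside Hsf1 null MEFs, and for Areg, at 1.36 ± 0.12 against 0.56 ± 0.12. Pdgfrb differed by 1.73 ± 0.16 with WT MEFs and by -0.27 ± 0.16 with Hsf1 null MEFs. The BMP target Id3 differed by 3.02 ± 0.29 with WT MEFs and by 3.05 ± 0.29 with Hsf1 null MEFs. Among the falls, Trim54 differed by -2.38 ± 0.19 with WT MEFs and by -0.05 ± 0.19 with Hsf1 null MEFs, Klhl30 by -2.42 ± 0.20 and -0.71 ± 0.20, and Macc1 by -1.97 ± 0.18 and -1.75 ± 0.18.

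**Figure D5:**
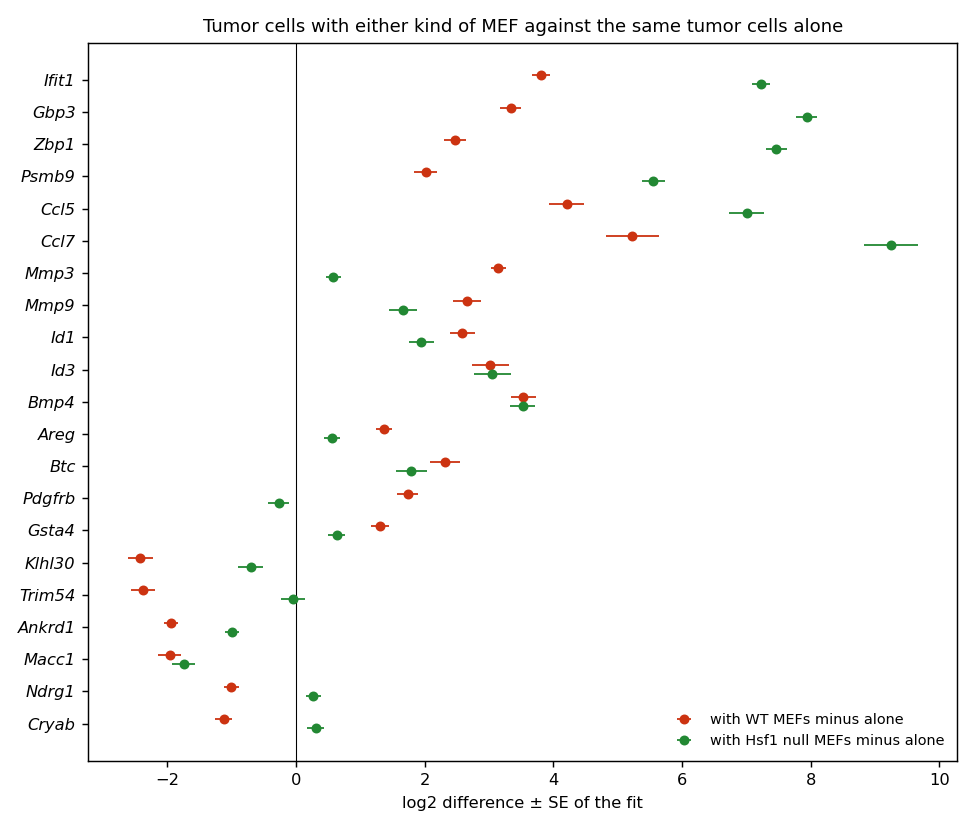
Log2 difference ± SE of the fit for 21 genes, tumor cells with WT MEFs minus alone and tumor cells with Hsf1 null MEFs minus alone, 2 arrays a group, with the same control arrays in both. Ifit1, Gbp3, Zbp1, Psmb9, Ccl5 and Ccl7 lie further right with Hsf1 null MEFs, Mmp3, Mmp9 and Areg further right with WT MEFs.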

How the data were processed

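RNA of 14 samples (7 groups of 2) was hybridised to 1-colour Agilent mouse arrays. The authors deposited a table of log2 values, 1 per gene name and array, on which all tests here ran. Its scaling is not given in the sources used here. Per the submitters' processing notes, signals came from Agilent Feature Extraction 9.1, while the file headers name version 10.1.1.1. The deposited scanner files hold each spot's intensity with its flags. Those files gave the filter (well above background on both arrays of at least 1 group) and 3 of the alternatives, and 2 faulty ones (array A of the tumor cells alone and of those with Hsf1 null MEFs) were left out. Tests used limma 3.58.1 in R 4.3.3 on all 7 groups (7 residual degrees of freedom, moderated p), adjusted by Benjamini-Hochberg over 25896 genes, with a threshold of 0.05. The script was tested on simulated data.

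A gene not well above background in one group has a lower bound, "at least N-fold": the mean of the brighter group against the higher of the dim probe's signal and the lowest signal well above background on each array. The MEF share of an array is the median, over the 229 genes typical of MEFs, of signal above tumor cells alone as a share of the sorted WT MEF signal above tumor cells alone, and that share of the sorted WT MEF level was taken off on the linear scale. Named genes were the 12 highest and 12 lowest passing genes well above background in both groups, the 12 highest not above tumor cells with WT MEFs in either WT MEF group, up to 6 bounds and 6 smallest p per direction, up to 5 members per list by p, and 6 further names (Hsf1, Tgfb1, Tgfb2, Tgfb3, Cxcl12, Cxcr4), of which the text gives a part. Ifit3, Id2, Plaur, Ccl3, Krt18, Fap, Lum and the neighbours of Gsta1 and 1110002E22Rik were named after their values were seen. The comparison, lists and rules were chosen with earlier results of these data known. Replicate letters follow the slides. Deviations from the group means correlated between groups of the same letter at 0.092 to 0.599 (median 0.298). All were positive, so arrays of the same slide deviated partly alike. The main fit still held no term for the slide. The fit with that term gave 4163 genes against 3058. Some items are not reported here.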

Additional observations from a re-analysis of the deposited data

How the results depend on the processing

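The comparison gave 3058 genes (1823 higher, 1235 lower). With the replicate letter, here the slide, as a block it gave 4163 genes (2285 higher and 1878 lower), and under this block no named gene lost its call while Gsta2 gained one. Fitting only the 3 tumor cell groups gave 1279 (957 and 322), and fitting the 4 arrays alone 1461 (1153 and 308), both with fewer residual degrees of freedom. Leaving out 1 array gave 1857 to 2400 genes, 1132 to 1478 higher and 562 to 922 lower. Scanner signals of the 12 sound files gave 1277 (1031 and 246), normexp with quantile normalization 1280 (852 and 428), and all 14 files 3 (3 and 0). The 12 sound files hold only 1 control array, B. Among genes named in the text no sign turned in their scanner signals, but some calls were lost. Among these were Il7 (0.92), Gsta1 (-2.17), H2-K1 (0.45), Gbp9 (1.69), Edn1 (-2.02), Ifi203 (1.17) and H2-T23 (0.77). Median centring gave 1916 lower genes. Taking off the MEF share gave 1030 higher and 2425 lower, and with the level of WT MEFs grown alone, an alternative chosen after seeing the data, 1117 higher. Without genes at least 2-fold higher in WT MEFs 1883 passed, 660 of them higher.

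Signs turned, none of them past the threshold, with all 14 scanner files, faulty ones included, for Ankrd1 (1.14), Ccne1 (0.59), Cldn3 (0.66), Cryab (1.195), Edn1 (0.010), F3 (0.50), Gbp4 (-1.87), Gbp9 (-1.85), Hk2 (1.92), Irf9 (-0.35), Plaur (1.83), Pvr (1.65), Smad6 (-0.82) and Tpm1 (0.60). With the MEF share taken off they turned for Car9 (-1.96), Ccdc80 (-0.26), Cxcl12 (-1.51), Fstl1 (-0.78), Loxl1 (-2.79) and Rcn3 (-0.83), and with the level of WT MEFs grown alone for Car9 (-1.96), Cdh2 (-1.13), Fstl1 (-0.78), Loxl1 (-2.79) and Rcn3 (-0.83). Of these, Car9, Ccdc80, Fstl1, Loxl1 and Rcn3 were set to the floor in the first subtraction, so their values there only reflect it. Car9, Fstl1, Loxl1 and Rcn3 had the same values in the second subtraction, which used the same floor, so those only reflect it too.

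The cause was not tested beyond these settings. With 2 arrays a group and 1 faulty scanner file in the control group, small differences, falls above all, depend most on single arrays, and a dim probe gives only a bound.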
